A study of Mus musculus with 10 samples.

Results

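The transcripts of 10 genes of the NRF2 pathway and of glutathione synthesis were followed in livers that lack Cpt1a. They are Nfe2l2, Gclc, Gclm, Gsr, Txnrd1, Srxn1, G6pdx, Pgd, Nqo1 and Hmox1, chosen by gene symbol as known genes of the pathway. All 10 were among the 51911 genes of the deposited table, and all 10 were among the 13619 genes with enough counts to be tested. RNA of 10 liver samples of C57BL/6 mice was sequenced, 5 carrying a liver knockout of Cpt1a (Cpt1a L-/-) and 5 of wild type. Both genotypes had eaten a high-fat diet (HFD) for 8 weeks, so what the diet itself does cannot be read from these samples. The allele or Cre behind the knockout and the age and sex of the mice are not stated in the labels. Nothing there says that each sample came from its own animal, so a p-value here weighs the spread among samples, which may be technical.

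NRF2, the protein of Nfe2l2, is a transcription factor that is held back by KEAP1, an adaptor that directs it to degradation. Oxidants and electrophiles relieve that control, and NRF2 then binds antioxidant response elements together with small MAF proteins. Its classical targets in liver make glutathione, keep glutathione and thioredoxin reduced, supply the NADPH that this costs, and break down quinones and heme. Because the control acts on the protein, the level of Nfe2l2 mRNA and the activity of NRF2 are separate quantities, and these data hold the mRNA only. CPT1A, the protein removed here, commits long-chain fatty acids to mitochondrial oxidation.

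Total counts lay between 23990996 and 25200298 in knockout and between 20599099 and 26955958 in wild type libraries. Cpt1a was at 70.5 to 93.9 CPM in knockout and at 319.7 to 504 CPM in wild type libraries, so each library matched its label (log2 fold change -2.43 ± 0.16, SE; edgeR adjusted p = 1.9e-05). CPM are counts scaled by library total with TMM factors. Libraries also differed in a way that genotype does not explain. On the first principal component, with 37.6% of the variance, knockout replicates 2, 3 and 5 lay on 1 side together with replicates 1 and 2 of wild type, and the other 5 libraries on the other. Wild type replicates 1 and 2 stood farthest out, and the members' values without them are given with the alternatives. All 10 hepatocyte markers were measured, with a summed level of 82313 to 98079 CPM in knockout and 94879 to 113077 CPM in wild type libraries. In whole tissue, fewer cells of a type and less RNA per cell cannot be told apart.

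The antioxidant response element has the core TGACNNNGC, where N is any base. This core was looked for on both strands of the RefSeq promoters (GRCm38) of the members, each from 250 bases before to 50 bases after a start site. The promoter table held 7 of the 10 members, Nfe2l2, Srxn1, Gclm, Pgd, Nqo1, Txnrd1 and G6pdx, with 10 start sites in all. Of these 7 members 6 held the core in at least 1 window, against 14.0% of the 27025 genes in the table. By window it was 6 of the members' 10, against 12.4% of 32851 windows. The members were chosen as known genes of the pathway, so a share above that of all genes is no separate result. Nqo1 held none. These 4 matches that lie before the start site are shown, 5′ to 3′ on the gene's strand, because this core is the textbook binding element of NRF2; capitals mark the core or its reverse complement.
Nfe2l2 (chr2:75704879-75704913, minus strand, core forward): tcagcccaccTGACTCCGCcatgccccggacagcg
Gclm (chr3:122245407-122245447, plus strand, core reversed): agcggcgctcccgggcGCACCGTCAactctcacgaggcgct
Txnrd1 (chr10:82859098-82859138, plus strand, core reversed): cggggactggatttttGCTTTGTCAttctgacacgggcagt
G6pdx (chrX:74428913-74428953, minus strand, core reversed): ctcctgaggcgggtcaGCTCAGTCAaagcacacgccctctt
The core began 240 bases before the start in Nfe2l2, 134 in Gclm, 92 in Txnrd1 and 57 in G6pdx. Srxn1 and Pgd held it just after the start. Txnrd1 and Pgd each held it at only 1 of their start sites, and their other windows held none. A match of these letters is a description and does not show that NRF2 binds there.

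The comparison asks whether the antioxidant and glutathione genes differ between fat-fed livers without and with Cpt1a. No member's difference between the genotypes passed the test. Of the 10, 0 passed edgeR's quasi-likelihood test with Benjamini-Hochberg adjustment over all genes, where 0.132% of all genes tested passed. DESeq2, limma-voom and limma on TPM also called 0 of the 10. Over all genes DESeq2 called 0.683%, while limma-voom called 24 and limma on TPM 11 of the 13619 tested. In 0 members were the genotypes fully apart, against 1.05% of all genes. Members differed in direction, with 4 positive and 6 negative log2 fold changes (knockout over wild type) and a median of -0.09. Over all genes the median was -0.02, with 44.7% of genes positive and 55.3% negative. In the edgeR fit the interval of the fold change excluded 0 in 1 member, Nqo1. In that fit Nqo1 was also the only member with an unadjusted p under 0.05, a mark that 4.82% of all genes reached. With limma-voom Nfe2l2 was under 0.05 as well (log2 fold change -0.34, unadjusted p = 0.030, adjusted p = 0.473).

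**Figure D1:**
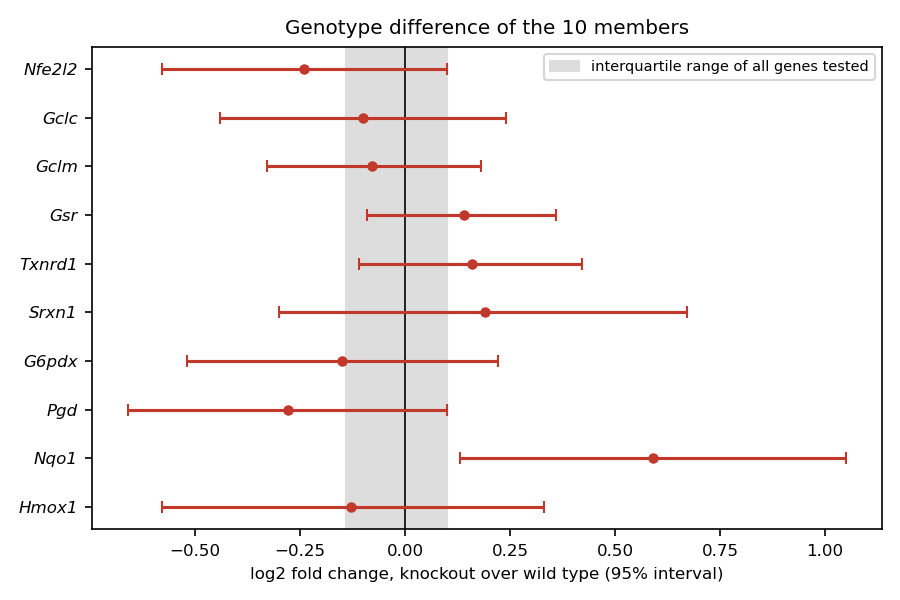
Log2 fold change of each member, knockout over wild type, with its 95% interval from the edgeR fit (n = 5 libraries each); the grey band is the interquartile range of all 13619 genes tested. Nqo1 at 0.59 stands to the right of the band and of 0, and the intervals of the other 9 members include 0.

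Nqo1 (ENSMUSG00000003849, chr8:107388225-107403206, minus strand) encodes NAD(P)H quinone dehydrogenase 1, which reduces quinones without forming semiquinone radicals and is the textbook reporter of NRF2 activity. It was at 4.97, 6.07, 9.74, 8.84 and 6.15 CPM in knockout replicates 1 to 5, against 4.57, 4.5, 3.58, 6.43 and 4.70 CPM in wild type replicates 1 to 5. All 5 knockout libraries lay above the wild type mean, but only knockout replicates 3 and 4 lay above wild type replicate 4, so the genotypes overlapped through that 1 library. The mean was 7.16 ± 2.03 CPM in knockout and 4.76 ± 1.03 CPM in wild type libraries (SD, n = 5 each). The log2 fold change was 0.59 ± 0.21 (SE), a 1.5-fold difference with a 95% interval from 1.09 to 2.07. It did not pass over all genes (edgeR unadjusted p = 0.016, adjusted p = 0.786), while permuting genotypes over the libraries (exact test, two-sided) gave p = 0.040, the smallest possible value being 0.0079. In the authors' deposited table the log2 fold change of Nqo1 is 0.41 with p = 0.0098, and whether that p was adjusted is not stated. DESeq2 run here on the rounded counts gave Nqo1 an unadjusted p = 0.01 and an adjusted p = 0.467. The deposited p is thus close to the unadjusted value and far from the adjusted value. Nqo1 was scarce, with 80 to 270 counts per library, so that counting alone gives an SD of 6.09% to 11.2%.

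The log2 fold change of Nqo1 was 0.72 without wild type replicate 4 and still did not pass (edgeR adjusted p = 0.513). It was 0.45 without knockout replicate 3, the highest library (edgeR unadjusted p = 0.055, adjusted p = 1.0), and the sign was the same in all 21 alternatives.

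**Figure D2:**
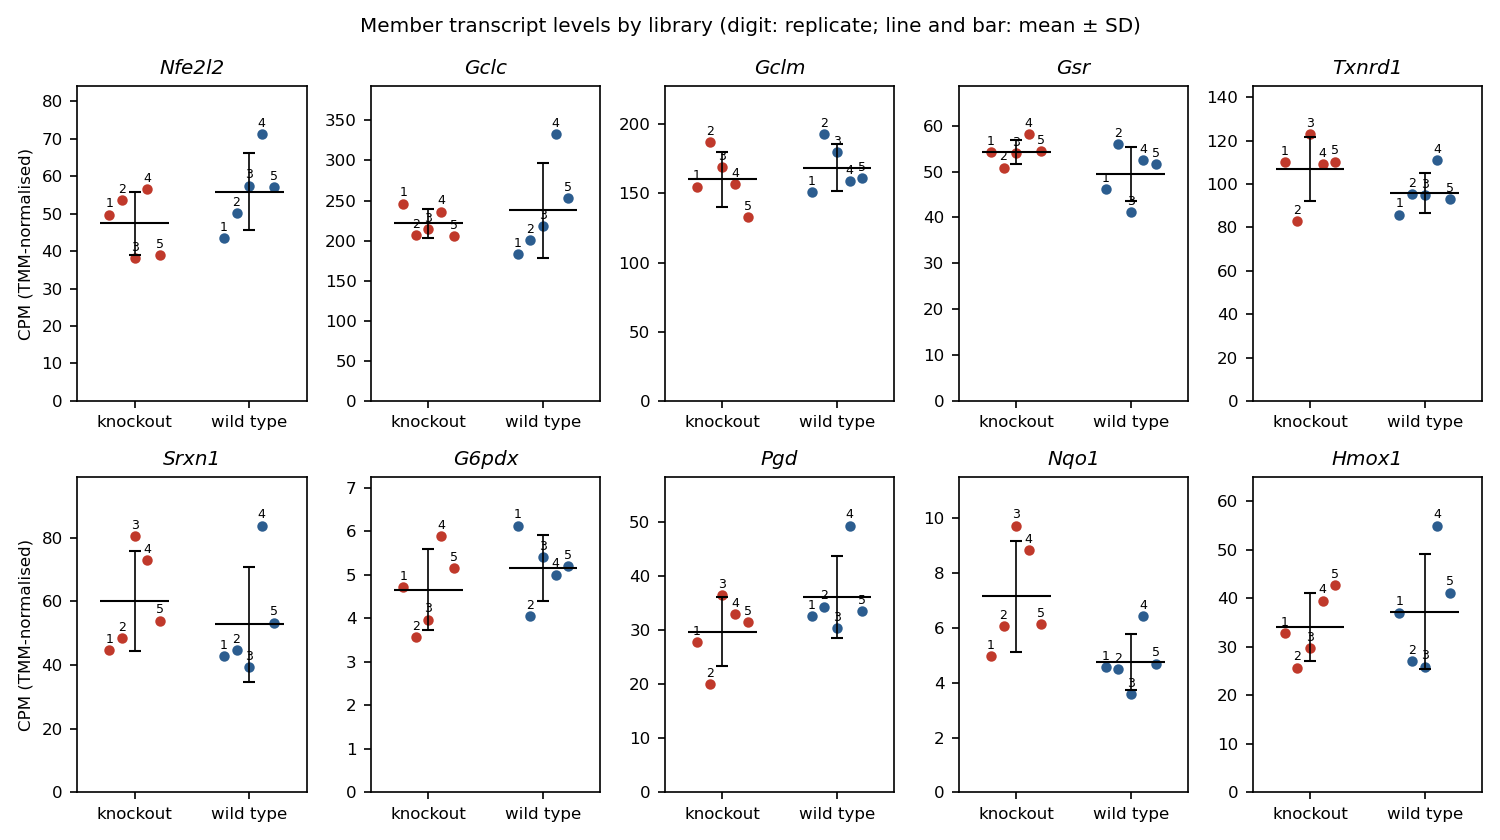
TMM-normalised CPM of the 10 members in each library, knockout to the left of wild type; digits are replicate numbers, horizontal lines are means and bars are ± 1 SD (n = 5 each), and each axis starts at 0. Nqo1 is the member in which most knockout points lie above the wild type points, with wild type replicate 4 at 6.43 CPM among the knockout values, and Gclc in wild type replicate 4 stands out at 333 CPM.

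Nfe2l2 (ENSMUSG00000015839, chr2:75675513-75704641, minus strand) itself was at 49.8, 53.6, 38.1, 56.6 and 38.9 CPM in knockout replicates 1 to 5, against 43.4, 50.2, 57.5, 71.3 and 57.2 CPM in wild type replicates 1 to 5. The genotypes overlapped, with the lowest values in knockout replicates 3 and 5 and the highest in wild type replicate 4. In the edgeR fit the log2 fold change was -0.24 ± 0.16 (SE; 95% interval -0.58 to 0.10, edgeR adjusted p = 1.0). Without wild type replicates 1 and 2, which lay on the far side of the first principal component, it was -0.38 (edgeR adjusted p = 0.336). Without wild type replicate 4 it was -0.14. Its sign was opposite to that of Nqo1, and knockout replicate 3 held the lowest Nfe2l2 level of the 10 libraries and the highest Nqo1 level. Over all 10 libraries the 2 genes were only weakly related (Pearson r = -0.23 and Spearman's rho = -0.24 of log2 CPM). Without knockout replicate 3 and wild type replicate 4 the r was -0.05.

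The partners that set NRF2 activity were measured as well through a list of 12 regulators. Of the 12, 0 passed in either direction (edgeR adjusted p; 0 with an unadjusted p under 0.05, and 0 by DESeq2), and their median log2 fold change was 0.05. Keap1, the adaptor that directs NRF2 to degradation, lay between 40.7 and 55.9 CPM in knockout and between 47.8 and 52.8 CPM in wild type libraries. Its log2 fold change of 0.02 had a 95% interval of -0.22 to 0.25. Bach1, a repressor that competes with NRF2 at the same elements, was at 32.7 ± 6.83 CPM in knockout and 29.0 ± 9.52 CPM in wild type libraries. The smallest p of the list belonged to Maff (log2 fold change 0.25 ± 0.19, SE) and Mafg (0.23 ± 0.18, SE), which encode small MAF partners. Mafg lay between 66.2 and 120.4 CPM in knockout and between 68.9 and 93.3 CPM in wild type libraries, with 2 knockout libraries above and 2 below the wild type range.

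Gclc and Gclm encode the catalytic and the modifier subunit of glutamate-cysteine ligase, the rate-limiting enzyme of glutathione synthesis. Gclc (ENSMUSG00000032350) lies at chr9:77754535-77794485 and Gclm (ENSMUSG00000028124) at chr3:122245557-122270732, both on the plus strand. Gclc was at 246, 207, 214, 236 and 206 CPM in knockout replicates 1 to 5, against 183, 201, 218, 333 and 253 CPM in wild type replicates 1 to 5. The knockout libraries lay close together (coefficient of variation 8.26%), inside the range of the wild type libraries (24.97%). Knockout over wild type, the log2 fold change was -0.10 ± 0.16 (SE; 95% interval -0.44 to 0.24, edgeR adjusted p = 1.0), and it turned to 0.05 without wild type replicate 4.

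Gclm was at 155, 187, 169, 157 and 133 CPM in knockout replicates 1 to 5, against 151, 193, 179.7, 159 and 161 CPM in wild type replicates 1 to 5. Its highest libraries were knockout replicate 2 and replicate 2 of wild type, where Gclc was not high. Its log2 fold change of -0.08 ± 0.12 (SE) had a 95% interval of -0.33 to 0.18, so that in this fit a difference beyond 0.79-fold or 1.13-fold lay outside the interval. With library totals as the scaling it was 0.02, a setting that moved the median of all genes by 0.09.

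Per length, as the deposited TPM give it, Gclm was the most abundant member and Gclc came next. Gclm averaged 87.2 TPM over the 10 libraries and Gclc 73.4 TPM, where TPM is the deposited level that accounts for transcript length. Gclm was above Gclc in 8 of 10 libraries. The ratio of Gclc to Gclm TPM was 0.866, 0.778, 0.796, 1.01 and 0.871 in knockout replicates 1 to 5, against 0.558, 0.567, 0.781, 1.22 and 0.902 in wild type replicates 1 to 5. The ratio was lowest in wild type replicates 1 and 2 and highest in wild type replicate 4, so the knockout values lay within the wild type range. The log2 difference between genotypes was 0.16 (exact two-sided permutation test, p = 0.508, adjusted over 3 ratios 0.548). The transcript length that the deposited TPM of Gclm implies, computed from its count and TPM, was longest, 2928 bases, in knockout replicate 2 and shortest, 1914 bases, in wild type replicate 1. In Gclc it moved only between 4107 and 4170.0 bases, so the Gclm level per length carries the estimate of its transcript forms as well. The length column of the deposit gives 5589 bases for Gclm and 3423 for Gclc. In CPM Gclc was the higher, at 222 against 160.1 in knockout and 238 against 169 in wild type libraries on average. With those lengths Gclc would therefore come before Gclm. With CPM in place of TPM the log2 difference of the ratio of Gclc to Gclm was 0.01.

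The step after glutamate-cysteine ligase is glutathione synthetase, encoded by Gss, at 73.9 ± 4.24 CPM in knockout and 77.1 ± 8.15 CPM in wild type libraries (log2 fold change -0.06, 95% interval -0.28 to 0.16). Gss overlaps Acss2 on the opposite strand, and the sources do not say whether counting kept strand. In the list of glutathione synthesis, turnover and use 0 of 27 tested genes passed (edgeR adjusted p; 0 with an unadjusted p under 0.05, 0 by DESeq2), with 10 positive, 17 negative and a median of -0.03. The smallest p belonged to Gpx7 (0.33 ± 0.20, log2 fold change with SE), a peroxidase of the endoplasmic reticulum at 1.83 ± 0.332 CPM in knockout and 1.46 ± 0.184 CPM in wild type libraries, and to the scarce peroxidase gene Gpx6 (-0.50 ± 0.33). The list of sulfur amino acid and cysteine metabolism holds genes of cysteine supply and of its breakdown. Of its 16 tested genes 13 were negative, against 55.3% of all genes, and these genes share the libraries and their scaling. Their median was -0.09, and 0 passed (edgeR adjusted p, with 0 under 0.05 unadjusted and 0 by DESeq2). The smallest p there belonged to Ethe1 (-0.25 ± 0.15) and Suox (-0.22 ± 0.14), enzymes that oxidise sulfur released from cysteine. Slc7a11, the cystine importer and a target of NRF2 in many cell types, had 1 to 11 counts in knockout libraries and 1 to 40 in wild type libraries and was too scarce to test.

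Gsr and Txnrd1 encode glutathione reductase and the cytosolic thioredoxin reductase, which spend NADPH to return glutathione and thioredoxin to their reduced form. Gsr (ENSMUSG00000031584) lies at chr8:33652523-33698163 and Txnrd1 (ENSMUSG00000020250) at chr10:82833951-82897712, both on the plus strand. Gsr was at 54.3, 50.9, 54.0, 58.2 and 54.4 CPM in knockout replicates 1 to 5, against 46.2, 56.0, 41.1, 52.5 and 51.6 CPM in wild type replicates 1 to 5. All 5 knockout libraries lay above the wild type mean, yet wild type replicate 2 exceeded 4 of them. The knockout libraries were tightly grouped (coefficient of variation 4.79%, against 11.9% in wild type). In the edgeR fit the log2 fold change was 0.14 ± 0.10 (SE; 95% interval -0.09 to 0.36, edgeR adjusted p = 1.0).

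Txnrd1 was at 109.9, 82.7, 123, 109 and 110.3 CPM in knockout replicates 1 to 5, against 85.8, 95.3, 94.9, 111 and 93.1 CPM in wild type replicates 1 to 5. Knockout replicate 2 was the lowest of the 10 libraries and knockout replicate 3 the highest. Knockout over wild type, the log2 fold change was 0.16 ± 0.12 (SE; 95% interval -0.11 to 0.42, edgeR adjusted p = 1.0). The ratio of Gsr to Txnrd1 TPM averaged 0.693 ± 0.101 in knockout and 0.734 ± 0.114 in wild type libraries (SD, n = 5 each), a log2 difference of -0.08 (exact two-sided permutation test, p = 0.548, adjusted over 3 ratios 0.548).

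Srxn1 (ENSMUSG00000032802, chr2:152105516-152111376, plus strand) encodes sulfiredoxin, which repairs over-oxidised peroxiredoxins. It was at 44.6, 48.4, 80.4, 72.9 and 54.0 CPM in knockout replicates 1 to 5, against 42.7, 44.6, 39.3, 83.8 and 53.3 CPM in wild type replicates 1 to 5. The genotypes overlapped almost fully, with 3 high libraries, knockout replicates 3 and 4 and wild type replicate 4. Its log2 fold change of 0.19 ± 0.22 (SE; 95% interval -0.30 to 0.67, edgeR adjusted p = 1.0) was 0.06 with knockout replicate 3 left out and 0.42 with wild type replicate 4 left out. In the thioredoxin and peroxiredoxin list 0 of 19 genes passed (edgeR adjusted p; 0 unadjusted, 0 by DESeq2), with a median of -0.07. The smallest p belonged to Msrb1 (-0.21 ± 0.21, log2 fold change with SE), a methionine sulfoxide reductase, and Sesn3 (0.13 ± 0.14), a sestrin.

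G6pdx and Pgd encode glucose-6-phosphate dehydrogenase and 6-phosphogluconate dehydrogenase, the enzymes of the pentose phosphate pathway that form NADPH. G6pdx (ENSMUSG00000031400) lies at chrX:74409483-74429194 and Pgd (ENSMUSG00000028961) at chr4:149149991-149166771, both on the minus strand. Pgd was at 27.7, 19.95, 36.5, 32.9 and 31.5 CPM in knockout replicates 1 to 5, against 32.6, 34.3, 30.4, 49.3 and 33.5 CPM in wild type replicates 1 to 5. Knockout replicate 2 was lowest and wild type replicate 4 highest, and the other 8 libraries lay between 27.7 and 36.5 CPM. In the edgeR fit the log2 fold change was -0.28 ± 0.17 (SE; 95% interval -0.66 to 0.10, edgeR adjusted p = 1.0). It was -0.17 with knockout replicate 2 left out and -0.14 with wild type replicate 4 left out.

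G6pdx was at 4.72, 3.56, 3.97, 5.88 and 5.15 CPM in knockout replicates 1 to 5, against 6.13, 4.05, 5.41, 5.0 and 5.19 CPM in wild type replicates 1 to 5. The ranges overlapped, and with 72 to 157 counts per library counting alone gives an SD of 7.98% to 11.8%. Knockout over wild type, the log2 fold change was -0.15 ± 0.17 (SE; 95% interval -0.52 to 0.22, edgeR adjusted p = 1.0). G6pdx overlaps Ikbkg on the opposite strand, sharing 418 of 3080 exonic bases, and Ikbkg averaged 47.3 ± 9.73 CPM in knockout and 43.5 ± 5.03 CPM in wild type libraries. Since strand is not stated, reads of Ikbkg cannot be told apart from those of G6pdx there. G6pd2, a near copy of G6pdx, is listed at 0 in all 10 libraries. The ratio of G6pdx to Pgd TPM averaged 0.154 ± 0.0280 in knockout and 0.128 ± 0.0280 in wild type libraries (SD, n = 5 each; log2 difference 0.28, exact two-sided permutation test, p = 0.183, adjusted over 3 ratios 0.548). The transcript length implied by the TPM of G6pdx was shortest, 2159 bases, in knockout replicate 3 and longest, 3146 bases, in wild type replicate 1, and with CPM in place of TPM the log2 difference was 0.13.

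Among the members, Pgd had its highest r with Hmox1 (r = 0.66, rho = 0.47 over 10 libraries), which was -0.02 with knockout replicate 2 and wild type replicate 4 left out. By the rule for the most similar genes (highest Pearson r of log2 CPM over the 10 libraries among 9723 genes), Pgd was closest to Fasn, the fatty acid synthase gene (r = 0.95, Spearman's rho = 0.73), and Acaca, which encodes acetyl-CoA carboxylase 1 (r = 0.93, rho = 0.53). Genes picked by this rule have a high r through the search itself, so such r are given as a description. With the same libraries left out, r was 0.67 for Fasn and 0.28 for Acaca, so the likeness to Acaca rested on them. The mean centred log2 CPM of the lipogenesis list was -0.85 in knockout replicate 2 and 1.16 in replicate 4 of wild type, the extremes of the 10 libraries. Of 13 lipogenic genes tested, 11 were negative, against 55.3% of all genes (median log2 fold change -0.58). With edgeR 0 passed (adjusted p) and 5 had an unadjusted p under 0.05, while DESeq2 called 4 and limma-voom 1. The smallest p belonged to Thrsp (-1.47 ± 0.27) and Pklr (-1.14 ± 0.22, log2 fold change with SE). Me1, the NADPH-forming malic enzyme that both NRF2 and lipogenic factors are known to drive, was at 69.3 ± 20.5 CPM in knockout and 88.2 ± 54.2 CPM in wild type libraries, with 180.1 CPM in wild type replicate 4. The part of the lipogenic state in the Pgd difference was not tested.

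**Figure D3:**
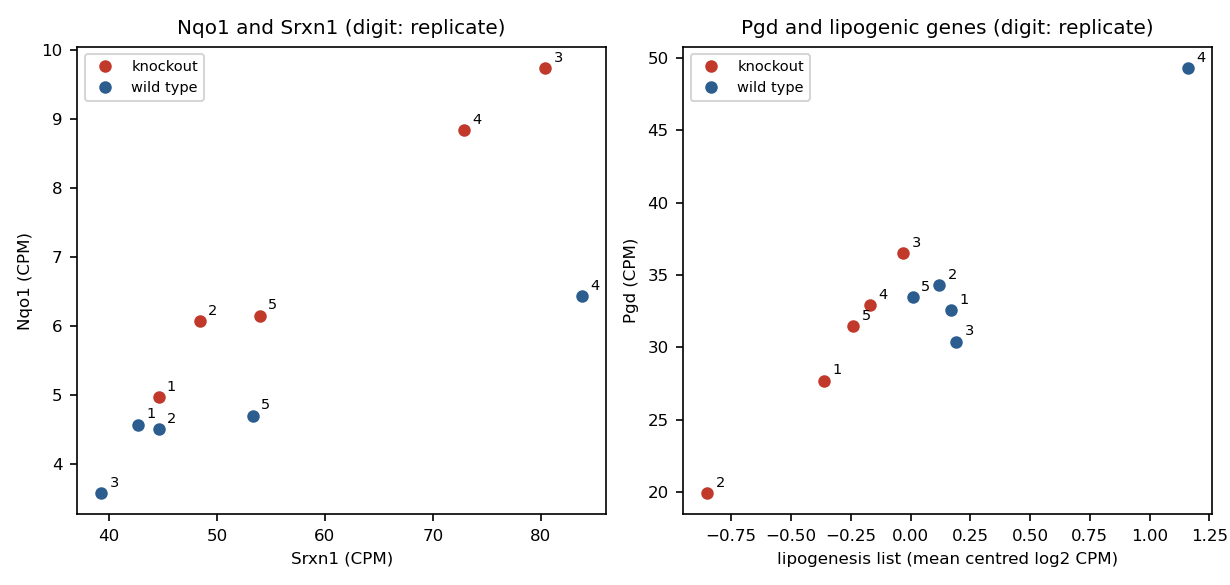
Left, Nqo1 against Srxn1 CPM; right, Pgd CPM against the mean centred log2 CPM of the 13 lipogenic genes tested; each point is a library, red knockout and blue wild type, with its replicate number. Nqo1 and Srxn1 share their 3 highest libraries, and Pgd at 19.95 CPM in knockout replicate 2 and at 49.3 CPM in replicate 4 of wild type sits at the ends of the lipogenesis axis.

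Among the wider set of pentose phosphate and NADPH enzymes 0 of 17 passed (edgeR adjusted p; 2 unadjusted, 0 by DESeq2), with 6 positive, 11 negative and a median of -0.11. Idh2, the mitochondrial NADP-dependent isocitrate dehydrogenase, was at 97.5, 98.6, 125, 119 and 96.5 CPM in knockout replicates 1 to 5, against 83.4, 79.4, 76.4, 99.4 and 94.5 CPM in wild type replicates 1 to 5. Only wild type replicate 4 reached the knockout range, as for Nqo1. Its log2 fold change was 0.31 ± 0.12 (SE; edgeR unadjusted p = 0.023, adjusted p = 0.903). Aldh1l1, a folate enzyme that forms NADPH in the cytosol, went the other way, at 560.3 ± 110.3 CPM in knockout and 721 ± 67.8 CPM in wild type libraries (log2 fold change -0.36 ± 0.15, SE; edgeR unadjusted p = 0.034, adjusted p = 0.991). Nnt, the proton-driven transhydrogenase of mitochondria that some C57BL/6 substrains have lost in part, was detected in all 10 libraries, at 99.3 ± 25.03 CPM in knockout and 88.1 ± 19.7 CPM in wild type. Gene counts do not show which of its exons were present.

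Hmox1 (ENSMUSG00000005413, chr8:75093621-75100589, plus strand) encodes heme oxygenase 1, which opens heme and releases iron and biliverdin, and which macrophages express along with hepatocytes. It was at 32.8, 25.7, 29.8, 39.5 and 42.7 CPM in knockout replicates 1 to 5, against 37.0, 27.0, 25.9, 55.0 and 41.2 CPM in wild type replicates 1 to 5. The genotypes overlapped, and the log2 fold change was -0.13 ± 0.21 (SE; 95% interval -0.58 to 0.33, edgeR adjusted p = 1.0), or 0.06 without wild type replicate 4. The 14 Kupffer cell and macrophage markers, none at 0, summed to 709.7 to 861 CPM in knockout and 681 to 901 CPM in wild type libraries. The library with the highest Hmox1 level, wild type replicate 4, had the lowest sum of these markers. The 9 markers of infiltrating leukocytes, none at 0, summed to 13.7 to 21.3 CPM in knockout and 14.7 to 30.4 CPM in wild type libraries, and here wild type replicate 4 was highest. The genes most like Hmox1 were Ncf1, which encodes a subunit of the phagocyte NADPH oxidase (r = 0.94, rho = 0.95), and Pkm (r = 0.93, rho = 0.85). Both were picked for their r among 9723 genes, so a high r comes with the search. The part of these cells in the Hmox1 level was not tested.

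In the list of heme and iron metabolism, synthesis included, 0 of 9 tested genes passed (edgeR adjusted p, with 1 under 0.05 unadjusted and 0 by DESeq2). Of the 9, 7 were positive, against 44.7% of all genes, with a median of 0.06. The gene with the smallest p was Alas1, the rate-limiting enzyme of heme synthesis in liver. It was at 615, 375, 624, 614 and 429 CPM in knockout replicates 1 to 5, against 282, 313, 331, 394 and 407 CPM in wild type replicates 1 to 5. Of the knockout libraries 4 lay above every wild type library, and knockout replicate 2 lay among them. In the edgeR fit the log2 fold change was 0.62 ± 0.17 (SE; edgeR unadjusted p = 0.0032, adjusted p = 0.405). Next was Fech, which inserts iron to complete heme (0.12 ± 0.10, log2 fold change with SE).

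Of 32 other NRF2 targets tested 0 passed (edgeR adjusted p; 2 unadjusted, 0 by DESeq2), with 15 positive, 17 negative and a median of -0.02, the median of all genes. The 2 with an unadjusted p under 0.05 went in opposite directions. Osgin1, an oxidative stress-induced growth inhibitor, was at 198, 259, 173, 155 and 314 CPM in knockout replicates 1 to 5, against 126, 124, 125, 114 and 235 CPM in wild type replicates 1 to 5. Only wild type replicate 5 reached the knockout range (log2 fold change 0.60 ± 0.24, SE; edgeR unadjusted p = 0.025, adjusted p = 0.919). Gstm2, a glutathione S-transferase with close paralogs that can share reads, was at 24.1 ± 7.33 CPM in knockout and 39.3 ± 15.8 CPM in wild type libraries (-0.70 ± 0.27, SE; edgeR unadjusted p = 0.020, adjusted p = 0.850). Enzymes that remove superoxide and hydrogen peroxide had 0 of 9 passing (edgeR adjusted p; 0 unadjusted, 0 by DESeq2) and a median of -0.03. The smallest p there belonged to Sod3 (-0.27 ± 0.15), the extracellular superoxide dismutase, and Ucp2 (0.28 ± 0.16, log2 fold change with SE), a mitochondrial carrier.

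**Figure D4:**
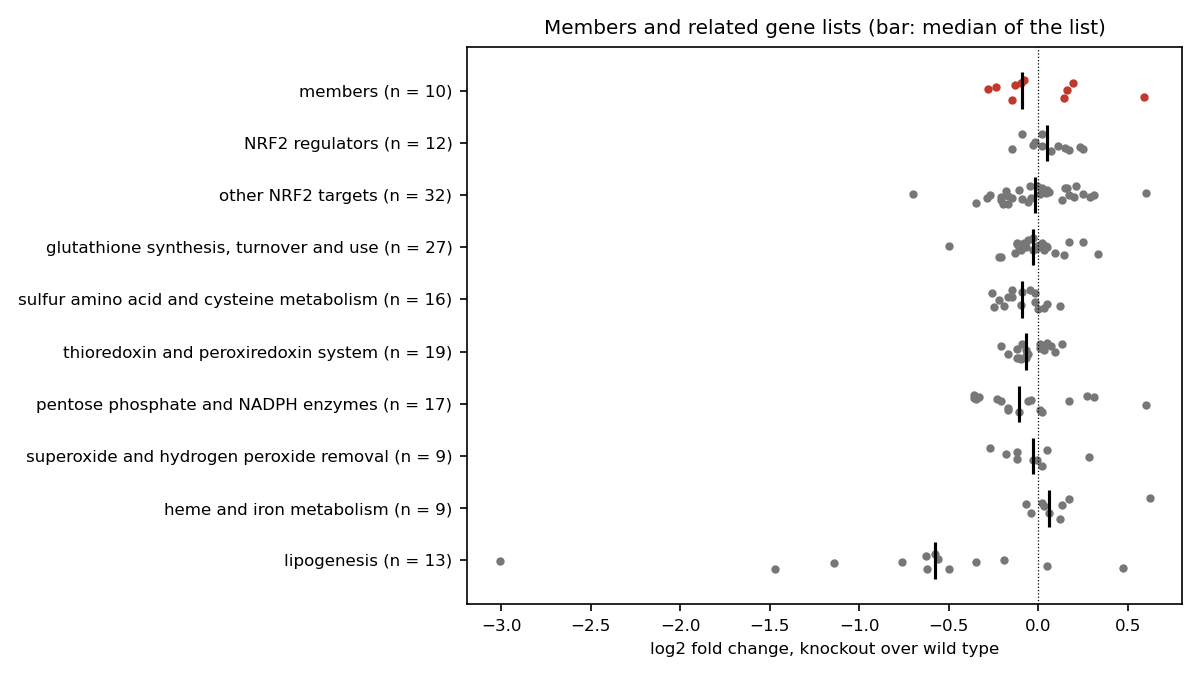
Log2 fold change, knockout over wild type, of each tested gene of the members (red) and of 9 related lists (grey), with the median of each list as a black bar and n the genes tested. The members' median of -0.09 lies within 0.11 of 0, as do those of the first 8 related lists, and the median of lipogenesis is -0.58.

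In levels per length over the 10 libraries, the order after Gclm and Gclc went on with Txnrd1 at 36.5 TPM, then Hmox1 at 28.0, Gsr at 25.3, Nfe2l2 at 24.6 and Srxn1 at 24.4 TPM. These last 4 did not differ beyond their spread: Hmox1 exceeded Gsr in 5 of 10 libraries, Gsr exceeded Nfe2l2 in 6 and Nfe2l2 exceeded Srxn1 in 6. Pgd followed at 17.1 TPM, Nqo1 at 4.74 TPM and G6pdx at 2.30 TPM, and each of these lay below the gene before it in all 10 libraries. Gclm was more abundant than 92.5% of the genes tested, Nqo1 than 49.1% and G6pdx than 33.6%.

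The members did not move as a block from library to library. Nqo1 and Srxn1 were the most alike pair (r = 0.86, rho = 0.92 over 10 libraries, and r = 0.91 without knockout replicate 3 and wild type replicate 4). Their 3 highest libraries were the same, knockout replicates 3 and 4 and wild type replicate 4, and the lowest of each was wild type replicate 3. Nfe2l2 and Gclc came next (r = 0.73, rho = 0.64), and Gclm and Hmox1 ran most nearly opposite (r = -0.72, rho = -0.70). These r share the libraries and their scaling and are given as a description. Wild type replicate 4 held the highest level of 5 of the 10 members, Nfe2l2, Gclc, Srxn1, Pgd and Hmox1, and knockout replicate 2 the lowest level of 4. The mean of the members' centred log2 CPM ran from -0.18 (replicate 2) to 0.19 (replicate 4) in knockout libraries and from -0.16 (replicate 3) to 0.32 (replicate 4) in wild type libraries.

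**Figure D5:**
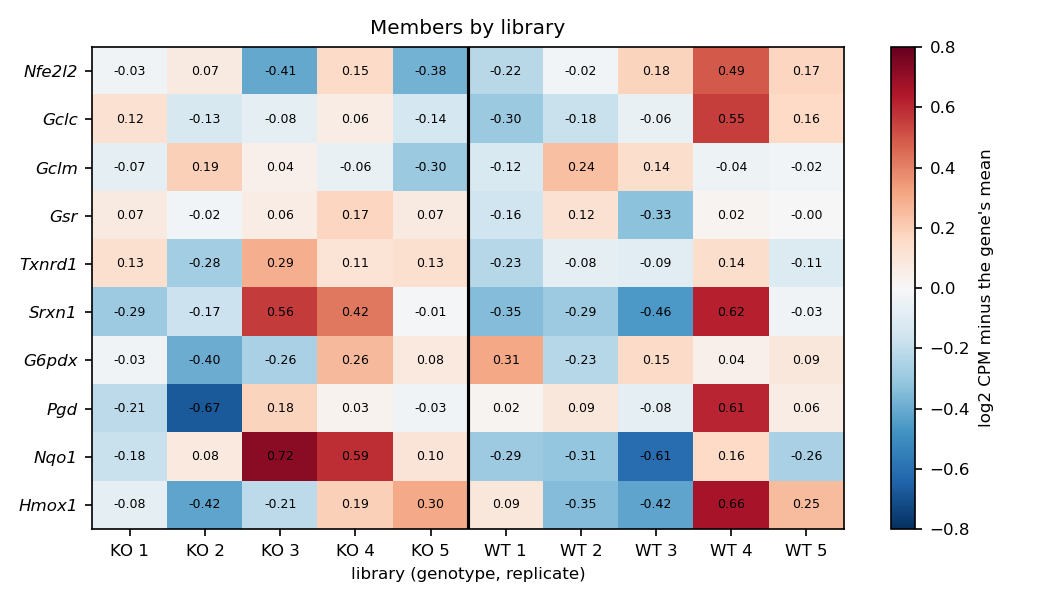
Log2 CPM of each member minus its mean over the 10 libraries, with knockout (KO) libraries left of wild type (WT) libraries and red for higher. Wild type replicate 4 is red in 9 of 10 rows, palest for G6pdx, Gsr, Txnrd1 and Nqo1, and Nqo1 and Srxn1 are red together in knockout replicates 3 and 4.

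By the same rule of likeness Nqo1 was closest to Idh2 (r = 0.95, rho = 0.96) and to the transporter gene Slc16a5 (r = 0.93, rho = 0.96), at 15.2 CPM in knockout and 7.58 CPM in wild type libraries on average. Nfe2l2 was closest to Mme (r = 0.99, rho = 0.95) and to Spp1 (r = 0.97, rho = 0.99). The search over 9723 genes gives a high r for any member: for Gsr, the lowest, the closest gene still had r = 0.85. Spp1 is also in the list of cholangiocyte markers. The 6 cholangiocyte markers, none at 0, summed to 21.4 to 49.8 CPM in knockout and 38.8 to 124 CPM in wild type libraries. The sum was highest in wild type replicate 4, as Nfe2l2 was. Spp1 itself is part of this sum, at 30.6 CPM in knockout and 59.8 CPM in wild type libraries on average. The median sums were 41.3 and 55.4 CPM, so the sum is not a reading separate from the likeness to Spp1. The part of cholangiocytes in the Nfe2l2 level was not tested. Gclc was closest to Stk38l (r = 0.92, rho = 0.83) and to the adhesion gene Vcam1 (r = 0.90, rho = 0.95), and without wild type replicates 1 and 4 the r with Stk38l was 0.56. Txnrd1 was closest to Map3k14 (r = 0.95, rho = 0.87) and Srxn1 to Anxa5 (r = 0.88, rho = 0.76).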

How the data were processed

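The submitters' processing notes name fastp, HISAT and RSEM with the build GRCm38.p5; no version, setting or strand is stated. Expected counts (RSEM's estimated counts) per gene and library were deposited by the authors, as were TPM values, TPM means per group and a transcript length. The deposited table also holds the authors' log2 fold changes and p-values, printed here for Nqo1 only. Of the deposited table's 51916 rows, 5 held no gene and were left out; of 27 symbols turned into dates, 26 were restored by identifier. Expected counts were not whole in 7.68% of all cells, or 21.4% of cells above 0 (tolerance 1e-06), and were rounded. Wild type columns, named by another abbreviation, were matched to titles by number. Libraries all differed beyond counting noise (the closest pair had a chi-square of 20.6 per degree of freedom).

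Genes were filtered with filterByExpr (13619 left), scaled with TMM and tested with edgeR 4.0.16 in R 4.3.3 (quasi-likelihood, robust), adjusted over all genes, with a threshold of 0.05. The test was tried on simulated data. SE come from the F statistic. Permutation tests used log2(CPM + 0.5). Counting SDs cover counting error only. Coordinates and overlaps come from GENCODE M21 (GRCm38). Members and lists were chosen with earlier results of these data known. Named genes were the 10 members, the 2 with the smallest p of each related list, and Keap1, Bach1, Gss, Nnt, Me1 and Slc7a11; G6pd2, Ikbkg and Acss2 were added as near copies or overlapping genes. Alternatives were other scalings, filters and tools (DESeq2 1.42.0, limma 3.58.1), a replicate block and each library left out.

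The replicate numbers did not pair the libraries, as described with the alternatives.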

Additional observations from a re-analysis of the deposited data

Results flagged for a closer look

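In 76 groups of 5 libraries (members, related genes named in the text and ratios), 5 held a library far from the other 4, by Dixon's test at the 95% level. Chance flags about 1 in 20 groups. Pgd was at 49.3 CPM in wild type replicate 4, with the other wild type libraries between 30.4 and 34.3 CPM. In the same library Pklr was at 377 CPM, against 190.2 to 242 CPM in the others. Slc7a11 was at 1.43 CPM there, against 0.0563 to 0.318 CPM. Osgin1 was at 235 CPM in wild type replicate 5, against 114 to 126 CPM in the other wild type libraries. Me1 was at 105 CPM in knockout replicate 4, against 52.1 to 65.5 CPM in the other knockout libraries. The causes were not tested.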

How the results depend on the processing

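None of the 10 members passed in any of the 21 alternatives (smallest adjusted p = 0.336), and 204 of 210 values kept their direction. Those that turned were small: on log2(TPM + 1), Gclc was 0.03, G6pdx 0.06 and Hmox1 0.01, with the median of all genes shifted by 0.10; without wild type replicate 4, Gclc was 0.05 and Hmox1 0.06; with library totals Gclm was 0.02. The cause was not tested. Leaving out 1 library at a time, log2 fold changes ran from -0.32 to -0.14 for Nfe2l2, -0.18 to 0.05 for Gclc, -0.14 to -0.02 for Gclm, 0.08 to 0.18 for Gsr, 0.10 to 0.24 for Txnrd1, 0.06 to 0.42 for Srxn1, -0.25 to -0.07 for G6pdx, -0.37 to -0.14 for Pgd, 0.45 to 0.72 for Nqo1 and -0.23 to 0.06 for Hmox1. Leaving out wild type replicates 1 and 2 was chosen after seeing the data. Without them Nfe2l2 was -0.38 (edgeR unadjusted p = 0.031), Gclc -0.27, Gclm -0.05, Gsr 0.17 and Txnrd1 0.11. In the same setting Srxn1 was 0.03, G6pdx -0.15, Pgd -0.34, Nqo1 0.55 (edgeR unadjusted p = 0.055) and Hmox1 -0.25. The 3 ratios kept their direction and stayed above the threshold in all 13 alternatives each. The count of changed genes over the whole table was 18, and it was 93 with DESeq2, 11 with limma on TPM, 10 without wild type replicates 1 and 2, and between 6 and 21 with 1 library left out, where it was 6 without knockout replicate 3, knockout replicate 5 or wild type replicate 3. Same-numbered libraries did not deviate together (correlations from -0.475 to 0.495, over 0.1 in 2 of 5 pairs, and 2 of 5 knockout libraries correlated best with their own number). With the replicate block the count was 26 and Nqo1 was at 0.57. Depth limits Nqo1 and G6pdx most, with counts down to 80 and 72.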
